A study of Drosophila melanogaster with 23 samples.

Results

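The genes described here encode the core of cyclic AMP (cAMP) signalling in Drosophila melanogaster: the adenylyl cyclases Ac78C, Ac76E, Ac3 and rutabaga (rut), the phosphodiesterase dunce (dnc), the protein kinase A (PKA) subunits Pka-C1, Pka-R1 and Pka-R2, and the transcription factor CrebB. Of these 9 genes, 6 had a probe set that the array annotation assigned to that gene alone, out of 11982 genes with such a probe set. Ac3, Pka-C1 and Pka-R2 had none and were not analysed here. Each gene was represented by its probe set with the highest mean over the 23 arrays. Ac78C, Ac76E, rut, dnc and Pka-R1 were tested among 7670 genes, and CrebB was too dim for the tests.

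Adenylyl cyclases make cAMP from ATP when receptors coupled to the stimulatory G protein are activated, and phosphodiesterases such as dunce break it down. cAMP binds the regulatory subunits of PKA and so frees the catalytic subunits, which phosphorylate channels and CREB-family transcription factors. In fly clock neurons the receptor for the neuropeptide PDF (pigment-dispersing factor) signals through cAMP, and rutabaga and dunce are known for their roles in olfactory learning.

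RNA was measured on 1-colour Affymetrix arrays in 8 groups of 3 arrays, except adult small Pdf cells, which had 2. The larval groups were hand-sorted fluorescent brain cells. They came from the lines Elav-Gal4;UAS-GFP (neurons in general), Pdf-Gal4;UAS-GFP (neurons that make PDF), Tim-Gal4;UAS-YFP (cells that express the clock gene timeless), and Tim-Gal4;Pdf-Gal80;UAS-YFP, where Gal80 blocks Gal4 in the PDF neurons. The last is called Tim without Pdf. The adult groups were Elav-Gal4;UAS-GFP cells, large and small cells of the Pdf-Gal4;UAS-GFP line, and whole dissected eyes, whose genotype the labels do not give. All sorted cells carried Gal4 and a fluorescent reporter, and the labels call the Tim cells GFP-positive although their line carries YFP. The age of the animals within each stage is not given. Animals were kept in 12 h of light and 12 h of dark, and material was taken near Zeitgeber time 12, the end of the light phase, from about 50 pooled heads per collection. The replicates are called biological in the labels, which do not say whether separate cultures were used, so each p reflects the spread among these arrays, some of which may be technical.

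Values are the authors' log2 expression values, and differences are differences of log2 group means ± standard error. A value of 5 was taken as the limit of detection. Folds against a group with an array below it were computed with values under 5 raised to 5 and are written "at least". A gene was called where its adjusted p was under 0.05 and its fold at least 2. A gene that was not called may still differ. Groups without overlap were common, at 27% to 56.3% of all genes tested over the comparisons of groups. Replicate arrays correlated at r of 0.846 to 0.966 over the genes tested. A lower level in a group cannot be told apart from fewer cells that express the gene.

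Pdf averaged between 14.34 and 15.53 in larval Pdf, larval Tim and both adult Pdf groups and between 2.92 and 3.85 in the others. The gene elav averaged between 11.56 and 12.88 in all 8 groups, eyes included, so elav does not separate them. The gene timeless (tim) averaged 10.69 in larval Tim cells, 10.20 in Tim without Pdf cells and 2.93 in larval Elav cells. Of 6 clock and PDF neuron markers, only 1 to 3 passed the limit on each Tim without Pdf array, against all 6 on each larval Tim and Pdf array. The larval Elav cells nevertheless had few transcripts of mature neurons. The mean over 6 neuronal marker genes lay between 4.92 and 6.69 on their arrays, against 9.82 to 11.2 in larval Pdf cells, 9.77 to 10.6 in larval Tim cells and 11.4 to 12.0 in adult Elav cells. The mean over 7 genes of neuroblasts and dividing cells lay between 11.4 and 12.1 in larval Elav cells, against 3.50 to 3.70 in adult Elav cells. These markers move with every comparison against larval Elav cells below, and their part in those differences was not tested. Of the comparisons, 3 between sorted larval cells share the larval Elav arrays and 3 within the adult share the adult Elav arrays, so their values are given side by side and were not set against each other.

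The range of group means was 9.37 for Ac76E, 8.30 for Ac78C, 6.73 for Pka-R1, 5.16 for dnc and 2.71 for rut, against a median of 3.27 over all genes tested. With values under 5 raised to 5 it was 7.14 for Ac76E, 6.65 for Pka-R1, 6.52 for Ac78C, 5.16 for dnc and 1.63 for rut. Ac76E had the widest range and rut the narrowest in both, while the order of Ac78C and Pka-R1 depended on the floor. The plot of every array shows how far the replicates spread within each group.

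**Figure D1:**
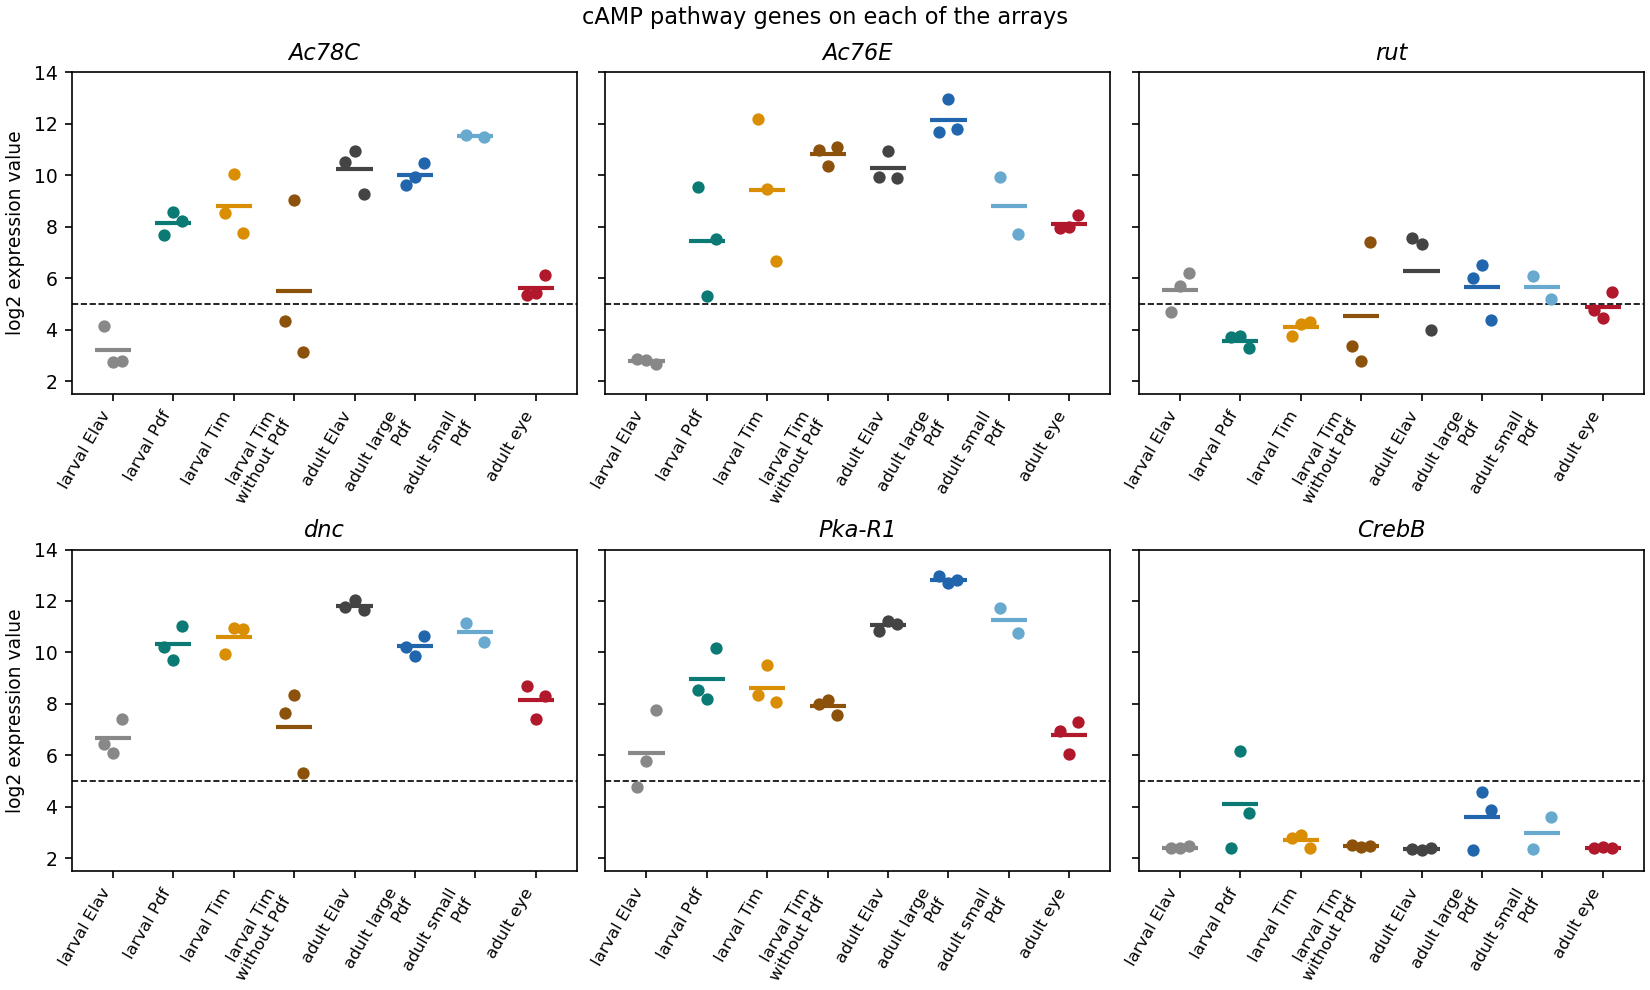
Log2 expression value of the 6 measured genes (vertical axis) on each of the 23 arrays, by sample group (horizontal axis), with group means and the limit of detection at 5. The larval Elav arrays are low for both Ac78C and Ac76E, and CrebB passes 5 on 1 larval Pdf array.

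Ac78C encodes a membrane adenylyl cyclase (probe set 1628412_at). In larval Elav cells its values were 4.14, 2.74 and 2.78, all under the limit of detection. Larval Pdf cells had 7.67, 8.57 and 8.21, and larval Tim cells 8.55, 10.05 and 7.76. Both of these groups lay wholly above larval Elav cells. The difference was +4.93 ± 0.99 for larval Pdf cells, at least 8.88-fold (adjusted p = 0.00112), and +5.56 for larval Tim cells, at least 13.8-fold (adjusted p = 0.000377).

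The larval Tim without Pdf arrays did not form a tight group for Ac78C, with values of 4.34, 9.03 and 3.12. One array was as high as the Tim arrays and the other 2 were under the limit. Their difference from larval Elav cells was +2.28 and was not called (adjusted p = 0.0754). Without replicate 3 of this group, whose Ac78C value was the lowest, the difference was +3.46 and was called (adjusted p = 0.00854), and with array quality weights it was +2.23 and called (adjusted p = 0.0305). Larval Tim cells exceeded Tim without Pdf cells by 3.29, at least 5.43-fold (adjusted p = 0.0297), although the groups overlapped. That call was lost when either replicate 1 or replicate 3 of the group without Pdf (adjusted p = 0.115 and 0.185), or replicate 2 of larval Tim cells (adjusted p = 0.138), was left out. It was also lost with all genes tested (adjusted p = 0.0553) and with no other groups in the fit (adjusted p = 0.239). Larval Pdf cells against Tim without Pdf cells gave +2.65, not called (adjusted p = 0.0603). Without replicate 2 of the group without Pdf it was +4.42 and called (adjusted p = 0.000121), and with array quality weights +3.13 and called (adjusted p = 0.0296).

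In the adult brain Ac78C was high in every sorted class. Adult Elav cells had 10.52, 10.96 and 9.26, large Pdf cells 9.61, 9.95 and 10.46, and small Pdf cells 11.56 and 11.49. The small Pdf arrays were the highest of all 23 and did not overlap any other group, and the large Pdf arrays lay within the range of the Elav arrays. Neither Pdf class differed from adult Elav cells by the test, with −0.24 for large cells (adjusted p = 0.97) and +1.27 ± 1.11 for small cells (adjusted p = 0.599). Large minus small cells was −1.52 (95% interval −3.83 to 0.80, adjusted p = 0.591).

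Adult eyes had Ac78C values of 5.35, 5.41 and 6.12, just above the limit and below every adult sorted array. The difference from adult Elav cells was −4.62, or 24.6-fold lower (adjusted p = 0.00106). Adult Elav cells exceeded larval Elav cells by 7.03, at least 38.0-fold (adjusted p = 9.93e-06). Adult Pdf cells of both sizes lay above all larval Pdf arrays without being called, with +1.85 for large (adjusted p = 0.179) and +3.37 for small cells (adjusted p = 0.0523). With no other groups in the fit both were called (adjusted p = 0.0341 and 0.0456), as was small against larval Pdf cells with values under 5 raised to 5 (adjusted p = 0.0198).

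Ac76E encodes a second membrane adenylyl cyclase (1628231_at). It was under the limit on all larval Elav arrays, at 2.85, 2.82 and 2.65. The larval Tim without Pdf arrays were high and close together, at 10.97, 10.35 and 11.10. The larval Tim arrays spread widely, at 12.18, 9.47 and 6.65, and so did the larval Pdf arrays, at 9.53, 5.31 and 7.52. All 3 groups lay above larval Elav cells without overlap. The difference was +8.04 for Tim without Pdf cells, at least 56.0-fold (adjusted p = 8.34e-06), +6.66 for Tim cells, at least 21.6-fold (adjusted p = 0.000106), and +4.68 ± 1.04 for Pdf cells, at least 5.48-fold (adjusted p = 0.00252). With values under 5 raised to 5 before the fit, the difference for Pdf cells was +2.45 and no longer called (adjusted p = 0.0959).

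Ac76E was called lower in larval Pdf cells than in Tim without Pdf cells. The difference was −3.35, or 10.2-fold (adjusted p = 0.0256), with no overlap. This call was lost in 7 of 14 alternatives, among them leaving out replicate 2 of larval Pdf cells, the array at 5.31 (adjusted p = 0.133). It was also lost without larval Pdf replicate 3 (adjusted p = 0.059) and without Tim without Pdf replicate 1 (adjusted p = 0.0658) or 3 (adjusted p = 0.0759). Larval Tim minus Tim without Pdf cells was −1.38 and was not called (adjusted p = 0.405). Without larval Tim replicate 3 that difference was +0.018.

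Genes of the ring gland, the endocrine gland beside the larval brain, were also high in the Tim groups. The list of 5 markers used includes Eh, which encodes the neuropeptide eclosion hormone. The mean over the list lay between 8.11 and 11.9 in larval Tim cells and between 10.2 and 12.1 in Tim without Pdf cells. It lay between 2.30 and 2.61 in larval Elav and Pdf cells, where 0 of the 5 genes passed the limit. Over the 3 larval Tim arrays jhamt, a gene of juvenile hormone synthesis in the ring gland, was 14.56, 12.65 and 9.77, and spok, of ecdysone synthesis, was 11.49, 12.08 and 6.11. These genes were chosen from the 5 after their values were seen. Both were lowest on replicate 3, as was Ac76E, while the order of the other arrays matched for jhamt and not for spok. On the Tim without Pdf arrays jhamt was 13.71, 14.18 and 14.22, an order unlike that of Ac76E. Of the 5 listed genes, 1 (the neuropeptide gene Eh) was called higher and 2 (dib and spok) lower in Tim than in Tim without Pdf cells. The part of these markers in the Ac76E values was not tested. Larval Pdf cells had Ac76E above the limit on all arrays with ring gland markers at background.

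**Figure D2:**
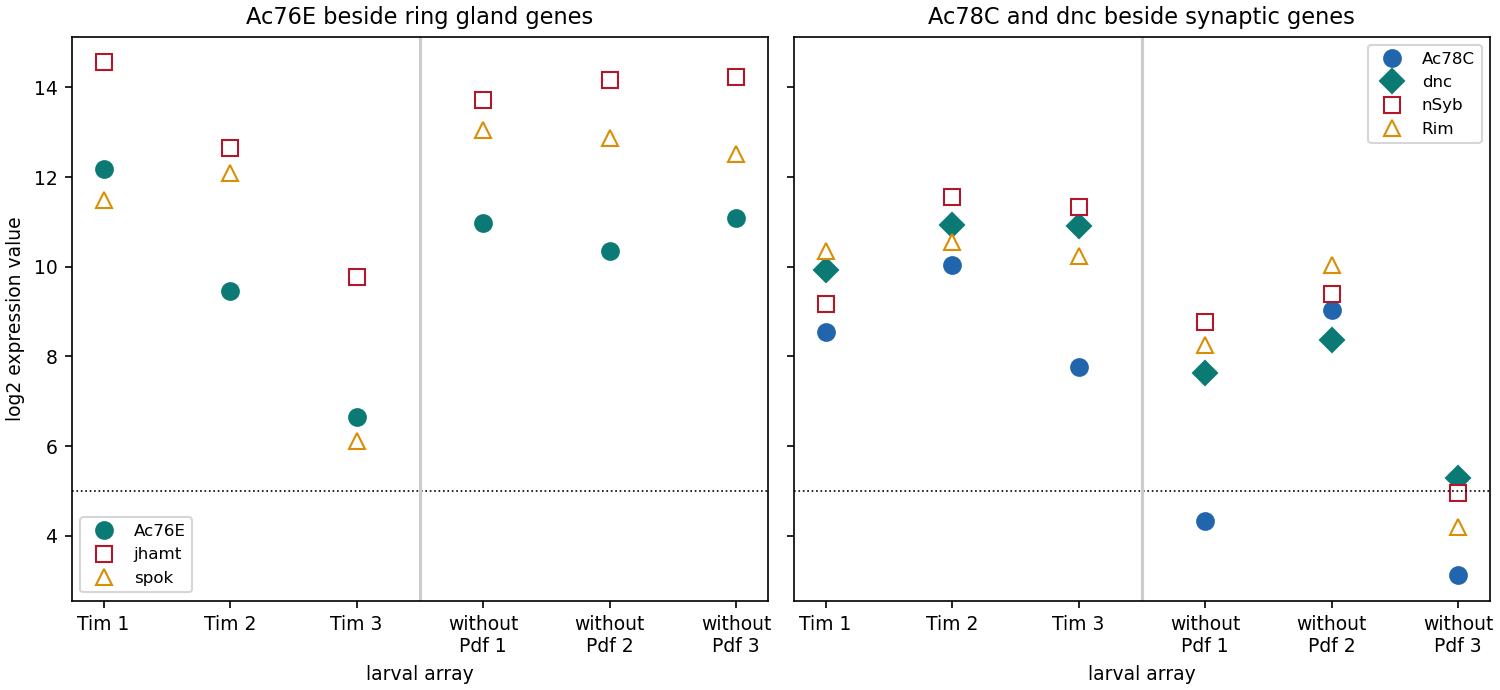
Log2 expression values on the 3 larval Tim and 3 Tim without Pdf arrays (horizontal axis), with Ac76E beside the ring gland genes jhamt and spok on the left and Ac78C and dnc beside the synaptic genes nSyb and Rim on the right. Ac76E is 6.65 on the Tim array where jhamt is 9.77, and dnc is 5.29 on the array without Pdf where Rim is 4.19.

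In adults Ac76E was highest in large Pdf cells, at 11.69, 12.96 and 11.78, with no overlap with any adult group. Adult Elav cells had 9.92, 10.95 and 9.91, small Pdf cells 9.92 and 7.70, and eyes 7.94, 7.98 and 8.43. Despite the lack of overlap, large minus small cells, +3.33 ± 1.16 (95% interval 0.90 to 5.76) or 10.1-fold, was not called (adjusted p = 0.131). Neither was large cells against adult Elav cells, +1.88 (adjusted p = 0.319), small cells against adult Elav cells, −1.45 (adjusted p = 0.556), or eyes against adult Elav cells, −2.14 (95% interval −4.32 to 0.03, adjusted p = 0.109). The eye difference was called with array quality weights (adjusted p = 0.0233) and with the adult Elav and eye arrays alone in the fit (adjusted p = 0.0074).

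Between stages, Ac76E rose by 7.49 in Elav cells, at least 38.4-fold (adjusted p = 8.25e-06). Large Pdf cells exceeded larval Pdf cells by 4.69, or 25.8-fold, with no overlap (adjusted p = 0.0026), whereas small Pdf cells minus larval Pdf cells was +1.36 with overlap (adjusted p = 0.494). The 2 cyclases thus had different highest groups among adult cells: Ac78C in small and Ac76E in large Pdf cells, differences that did not pass the test.

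**Figure D3:**
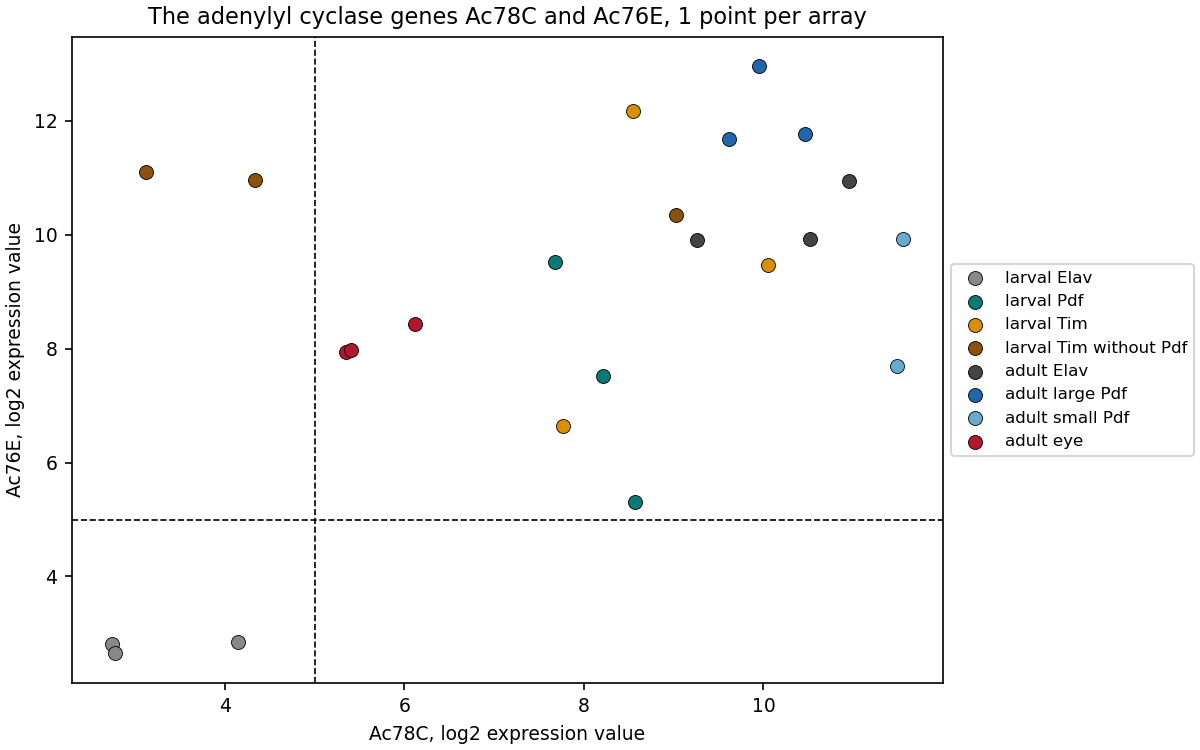
Ac78C (horizontal axis) against Ac76E (vertical axis), both as log2 expression values, with 1 point per array and dashed lines at the limit of detection. The Tim without Pdf arrays 1 and 3 have Ac76E near 11 and Ac78C below 5, and the larval Elav arrays are below 5 for both genes.

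The third cyclase, rut (1628594_at), is stimulated by calcium and calmodulin. It was above the limit on 10 of the 23 arrays and was called in none of the comparisons. Larval Elav cells had 4.67, 5.68 and 6.21, while larval Tim cells, at 3.74, 4.21 and 4.31, and larval Pdf cells, at 3.69, 3.75 and 3.27, were all under the limit. The Tim without Pdf arrays had 3.35, 2.78 and 7.40. Larval Pdf minus Elav cells was −1.95 (95% interval −4.00 to 0.11, adjusted p = 0.155), not called. With values under 5 raised to 5 it was −0.63. With no other groups in the fit, the difference of −1.95 was called (adjusted p = 0.0438).

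Adult Elav cells had rut values of 7.57, 7.31 and 3.98, large Pdf cells 6.01, 6.52 and 4.39, small Pdf cells 6.10 and 5.18, and eyes 4.78, 4.44 and 5.46. One adult Elav array and 1 large Pdf array were under the limit. Eyes minus adult Elav cells was −1.39 (adjusted p = 0.279), and without adult Elav replicate 3, the low array, that comparison was called (adjusted p = 0.0416). Without Tim without Pdf replicate 3, the array at 7.40, the difference of that group from larval Elav cells was −2.45 and called (adjusted p = 0.0287). In the order of group means every neighbouring pair of groups overlapped for rut.

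The phosphodiesterase gene dnc (1624686_a_at) was above the limit on all 23 arrays. Larval Elav cells had 6.46, 6.08 and 7.43. Larval Pdf cells had 10.20, 9.72 and 11.03, and larval Tim cells 9.93, 10.94 and 10.91, with no overlap. The difference was +3.66 ± 0.62 or 12.7-fold for Pdf cells (adjusted p = 0.000234) and +3.94 or 15.4-fold for Tim cells (adjusted p = 0.000122).

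Larval Tim without Pdf cells had dnc values of 7.63, 8.36 and 5.29, around those of larval Elav cells. The difference was +0.44 (95% interval −0.87 to 1.75, adjusted p = 0.631). Larval Pdf cells exceeded this group by 3.22, or 9.33-fold (adjusted p = 0.00112), and larval Tim cells exceeded it by 3.50, or 11.3-fold (adjusted p = 0.00114). Both groups lay wholly above it. The calls were lost only with no other groups in the fit (adjusted p = 0.0701 and 0.0621), among the alternatives run.

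Of 6 neuronal markers tested, 2 (nSyb and Rim) were called higher and 1 (Snap25) lower in Tim than in Tim without Pdf cells, and 3 were not called. nSyb, a synaptic vesicle protein gene, was 8.76, 9.40 and 4.96 on the Tim without Pdf arrays and 9.18, 11.56 and 11.33 on the Tim arrays. Its groups overlapped. Rim, a gene of the active zone, was 8.26, 10.04 and 4.19 against 10.35, 10.55 and 10.24, without overlap. Replicate 3 of Tim without Pdf cells was the lowest of its group for dnc, Ac78C, Pka-R1, nSyb and Rim, and the highest for rut and Ac76E. Of the 6 markers, nSyb and Rim were chosen after their values were seen. Other marker lists also moved in this comparison. Called higher in Tim cells were 6 of 7 genes of neuroblasts and dividing cells and 4 of 5 glial genes. So were 4 of 6 clock and PDF neuron genes and 3 of 6 mushroom body genes, against 0 of 6 hemocyte genes. The mean over the 7 neuroblast and dividing cell genes lay between 6.38 and 9.82 in Tim and 7.41 and 8.81 in Pdf cells. In Tim without Pdf cells it lay between 4.06 and 4.70. The part of all these markers in the dnc and Ac78C values was not tested.

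Adult Elav cells had the highest dnc values of all groups, at 11.78, 12.03 and 11.63, above every other array. Large Pdf cells had 10.23, 9.84 and 10.63, and small Pdf cells 11.16 and 10.41. The differences from adult Elav cells were −1.58 for large cells (95% interval −2.88 to −0.27, adjusted p = 0.135) and −1.03 ± 0.70 for small cells (adjusted p = 0.455), neither called. dnc is known for its role in the mushroom body, the learning centre of the fly brain. The mean over 6 mushroom body markers lay between 9.13 and 10.9 in adult Elav cells, between 7.36 and 7.60 in large and between 8.24 and 9.11 in small Pdf cells, and the part of these cells in the dnc level was not tested.

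Eyes had dnc values of 8.70, 7.43 and 8.31, below all adult sorted cells, with a difference from adult Elav cells of −3.67, or 12.7-fold lower (adjusted p = 0.000121). Adult Elav cells exceeded larval Elav cells by 5.16, or 35.7-fold (adjusted p = 1.64e-06). In Pdf neurons the values of the stages overlapped: large minus larval Pdf cells was −0.08 (95% interval −1.39 to 1.22, adjusted p = 0.961), and small minus larval Pdf cells was +0.47 (adjusted p = 0.732).

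Pka-R1 encodes a regulatory subunit of PKA (1635156_s_at). Larval Elav cells had 4.76, 5.76 and 7.78, a wide spread. Larval Pdf cells had 8.53, 8.20 and 10.18, larval Tim cells 8.33, 9.49 and 8.08, and Tim without Pdf cells 8.01, 8.14 and 7.58. Pdf and Tim cells lay above all larval Elav arrays, and Tim without Pdf cells overlapped them. The differences were +2.87 ± 0.64, at least 6.92-fold, for Pdf cells (adjusted p = 0.00261), +2.53, at least 5.48-fold, for Tim cells (adjusted p = 0.0069) and +1.81, at least 3.31-fold, for Tim without Pdf cells (adjusted p = 0.0301). All 3 were lost with the mean of both Pka-R1 probe sets (adjusted p = 0.0546, 0.111 and 0.175) and with no other groups in the fit (adjusted p = 0.0974, 0.0987 and 0.132). The other Pka-R1 probe set, described below, was at background on all larval arrays. Averaging it in shrinks these differences by construction, so the loss with that mean cannot test them. The call for Tim without Pdf cells was also lost without larval Elav replicate 1 or 2 (adjusted p = 0.172 and 0.0989) or Tim without Pdf replicate 1 or 2 (adjusted p = 0.071 and 0.0841). Neither larval Pdf minus Tim without Pdf cells, +1.06 (adjusted p = 0.252), nor larval Tim minus Tim without Pdf cells, +0.73 (adjusted p = 0.489), was called.

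In adults Pka-R1 was highest in large Pdf cells, at 12.96, 12.71 and 12.83, above every other array. Adult Elav cells had 10.85, 11.23 and 11.11, and small Pdf cells 11.74 and 10.77. Large cells minus adult Elav cells was +1.77 (95% interval 0.43 to 3.11, adjusted p = 0.0973) and large minus small cells was +1.58 ± 0.72 (adjusted p = 0.281), neither called. With the mean of both probe sets the second was +2.32 and called (adjusted p = 0.0339). The first was called after another quantile normalization (adjusted p = 0.0404), with no other groups in the fit (adjusted p = 0.0137) and with the mean of both probe sets (adjusted p = 0.0325).

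A second Pka-R1 probe set (1628707_at) gave a narrower pattern. It was at background, between 2.19 and 2.47, on all larval and eye arrays. It averaged 5.54 in adult Elav cells. In large Pdf cells it averaged 7.52 with a range of 6.36 to 8.34, and it was 2.39 and 6.53 in small Pdf cells. By this probe set large exceeded small Pdf cells by 3.06 (adjusted p = 0.0281), although the groups overlapped and 1 small Pdf array was at background. The 2 probe sets therefore differ in the larva and in eyes. There the first detected Pka-R1 on all arrays but larval Elav replicate 1, and the second did not detect it.

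Eyes had Pka-R1 values of 6.96, 6.05 and 7.31, in the range of larval Elav cells and below all adult sorted cells. The difference from adult Elav cells was −4.29, or 19.5-fold lower (adjusted p = 2.8e-05). Between stages Pka-R1 rose by 4.96 in Elav cells, at least 29.5-fold (adjusted p = 3.54e-06), and by 3.86 or 14.5-fold from larval to large Pdf cells (adjusted p = 0.000228). From larval to small Pdf cells it rose by 2.28 ± 0.71, or 4.85-fold (adjusted p = 0.0432). This last call was lost in 8 alternatives, among them array quality weights (adjusted p = 0.0612), leaving out larval Pdf replicate 1 or 2 (adjusted p = 0.113 and 0.143) and leaving out small Pdf replicate 1 or 2 (adjusted p = 0.294 and 0.0669).

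CrebB, the CREB-family transcription factor that PKA phosphorylates, was not detected on 22 of 23 arrays (1635570_a_at). The exception was larval Pdf replicate 2 at 6.18, with 2.39 and 3.77 on the other arrays of that group. Large Pdf cells had 2.32, 4.57 and 3.88, and small Pdf cells 2.38 and 3.59. The remaining groups lay between 2.34 and 2.92. A second CrebB probe set was between 2.09 and 3.68 on all arrays but 1 large Pdf array, at 8.19. The single high arrays of the 2 probe sets are different ones, and on each of them the other probe set was under the limit.

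Counted over the 5 tested genes, Ac78C, Ac76E, dnc and Pka-R1 were higher in the larval Pdf cells than in the Elav cells of that stage, 4 genes where 13.3% of all genes tested were called higher. The same 4 were higher in larval Tim cells, where 13.8% of all genes were, and 2 (Ac76E and Pka-R1) in Tim without Pdf cells, where 14.7% were. The median difference of the 5 genes was 3.66, 3.94 and 1.81 in these comparisons, against −0.11, −0.09 and −0.23 over all genes tested. In larval Pdf against Tim without Pdf cells 1 gene was higher (dnc; 15.1% of all genes) and 1 lower (Ac76E; 7.56%). In larval Tim against Tim without Pdf cells 2 were higher (dnc and Ac78C; 12.4% of all genes).

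In the adult brain limma called 0 of the 5 genes in large Pdf against Elav cells, where 9.06% of all genes were called, with 2 (dnc and Pka-R1) at an unadjusted p under 0.05. It called 0 in small Pdf against Elav cells (8.75% of all genes; 0 at an unadjusted p under 0.05). It also called 0 in large against small Pdf cells (3.62% of all genes; 2 at an unadjusted p under 0.05, Ac76E and Pka-R1). In eyes against adult Elav cells 3 genes (Ac78C, dnc and Pka-R1) were lower, where 25.5% of all genes were. Adult Elav cells exceeded larval Elav cells for 4 genes (20.3% of all genes), large Pdf exceeded larval Pdf cells for 2 (Ac76E and Pka-R1; 11.3%), and small Pdf exceeded larval Pdf cells for 1 (Pka-R1; 4.82%). Glial markers moved in several of these comparisons, with a mean over 6 genes between 2.75 and 3.29 in larval Elav, 5.82 and 7.26 in larval Pdf, 6.56 and 8.03 in larval Tim, 6.67 and 7.39 in eye and 3.10 and 3.76 in adult sorted arrays, and their part was not tested. Photoreceptor markers averaged between 12.6 and 13.6 in eyes.

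**Figure D4:**
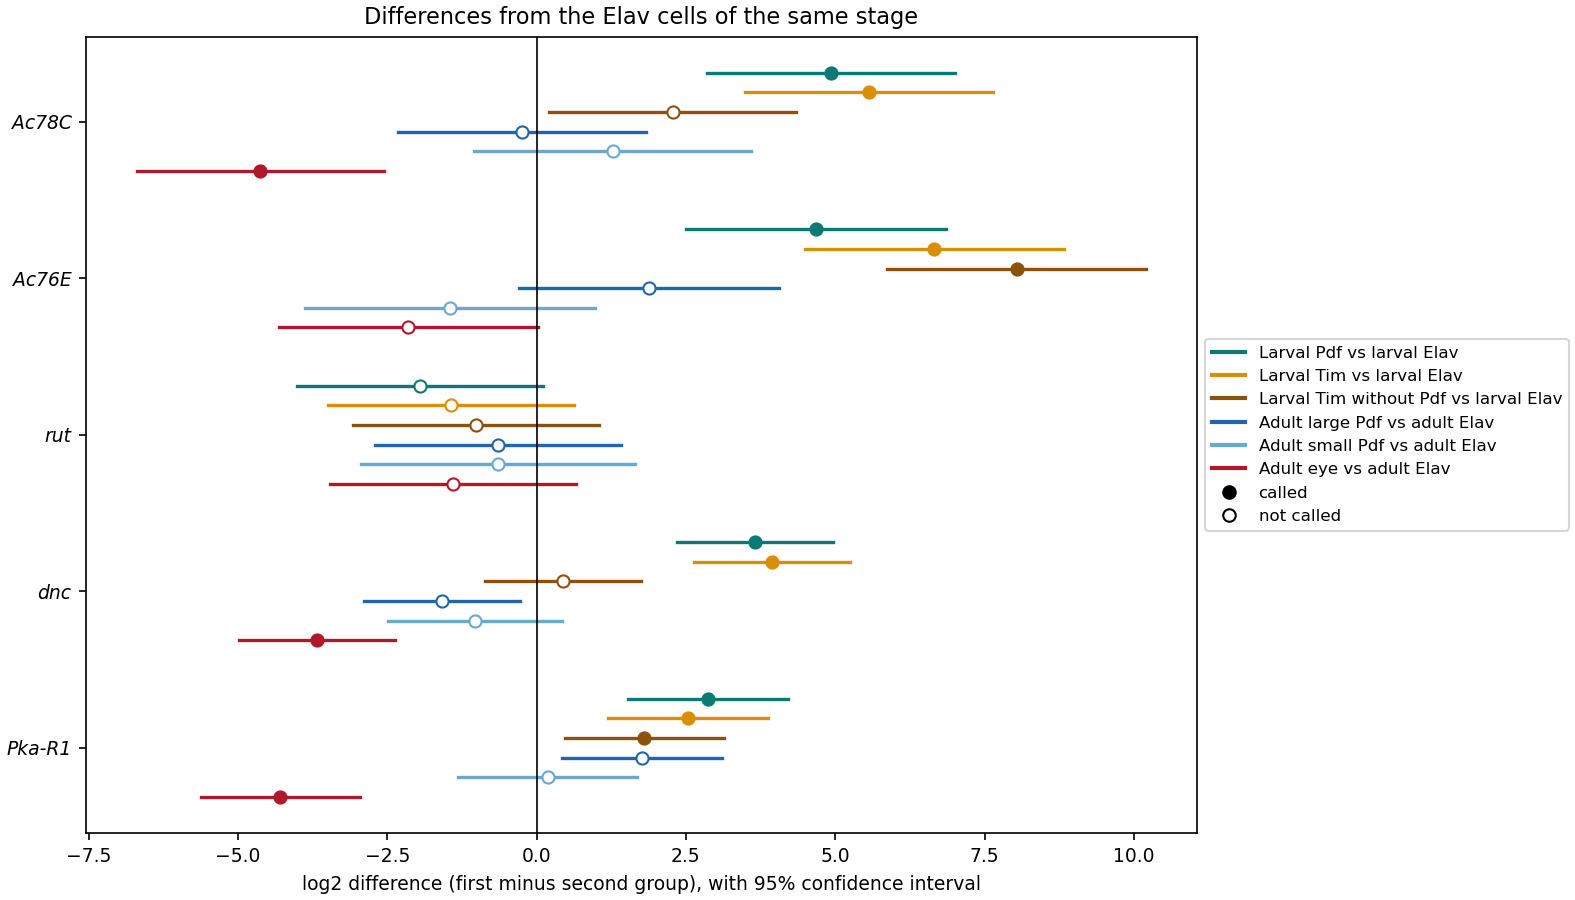
Log2 difference of each tested gene (vertical axis, by gene) from the Elav cells of the same stage (horizontal axis), with 95% confidence intervals, filled where the gene was called and open where it was not. The larval Pdf and Tim points for Ac78C, Ac76E, dnc and Pka-R1 lie above 0 and are filled, and those of the adult Pdf classes are all open.

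Whether the excess over Elav cells differed between larval and adult Pdf neurons was tested directly, as a difference of differences. For dnc it was smaller in the adult by 5.24 with large cells (95% interval −7.09 to −3.39, adjusted p = 0.000355) and by 4.69 with small cells (95% interval −6.65 to −2.73, adjusted p = 0.00185). For Ac78C the difference of differences was −5.17 with large cells (adjusted p = 0.0143) and −3.66 with small cells, not called (adjusted p = 0.109). For Ac76E it was −6.13 with small cells (adjusted p = 0.0104) and −2.80 with large cells, not called (adjusted p = 0.212). Pka-R1 gave −1.10 with large and −2.68 with small cells and rut +1.30 in both, none called. Some alternatives called the values with small cells. For Ac78C these were array quality weights (adjusted p = 0.0403) and no other groups in the fit (adjusted p = 0.018). For Pka-R1 they were another quantile normalization (adjusted p = 0.0417), leaving out larval Elav replicate 3 (−3.52, adjusted p = 0.00795) or larval Pdf replicate 2 (adjusted p = 0.0463), and larval Pdf replicate 3 alone (adjusted p = 0.0235). Thus 2 of the 5 genes were called lower with each class, where 10.9% of all genes were with large and 9.61% with small cells. The neuronal markers moved the same way, with 5 of 6 called lower with each class and medians of −6.20 and −7.04, and so did 15 and 12 of the 29 other pathway genes tested. The larval Elav arrays enter each of these values, and Ac78C and Ac76E lay under the limit there. With values under 5 raised to 5, Ac78C gave −3.39 with large cells and Ac76E −3.90 with small cells, the latter no longer called (adjusted p = 0.107). Ac76E with small cells was also not called without small Pdf replicate 2 (adjusted p = 0.0736).

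Larval Pdf replicates 1 and 2 carried transcripts of hemocytes, the blood cells of the fly, and replicate 3 did not. Hml, a hemocyte gene, was 11.91, 9.69 and 2.14 on these arrays. Replicate 3 alone was also taken as the larval Pdf group, a choice made after seeing the data, which assumes that a single array varies like the other groups. Ac78C, Ac76E, dnc and Pka-R1 were then called higher than in larval Elav cells. Ac76E against Tim without Pdf cells (adjusted p = 0.105), Pka-R1 in large (adjusted p = 0.0569) and in small against larval Pdf cells (+1.07, adjusted p = 0.651) and the Ac78C difference of differences with large cells (adjusted p = 0.0595) were then no longer called.

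A list of 47 other cAMP pathway genes had 40 with a probe set of their own and 29 tested. In larval Pdf against Elav cells 18 of the 29 were higher and 0 lower, where 13.3% and 12.8% of all genes were. Their median difference was 3.15, against −0.11 over all genes. The neuronal markers moved the same way, with 5 of 6 higher and a median of 4.98, and their part was not tested. These were 3 of 6 receptors, 2 of 4 G protein subunits, both other cyclases, 4 of 5 phosphodiesterases, 2 of 5 PKA subunits and anchoring proteins and 5 of 7 CREB partners and effectors. Examples were the cyclic-nucleotide-gated channel gene CngB (at least 44.2-fold, adjusted p = 6.18e-08), the channel gene Ih, whose protein is gated by hyperpolarization and cAMP (at least 63.1-fold, adjusted p = 6.63e-07), the G protein subunit gene Gbeta5 (at least 56.8-fold, adjusted p = 1.62e-06) and the PKA-anchoring protein gene rg (at least 30.8-fold, adjusted p = 0.00013). In larval Tim cells 15 were higher and 0 lower (median 1.91), where 13.8% and 9.63% of all genes were. In Tim without Pdf cells 14 were higher and 1, the anchoring protein gene pkaap, lower (median 1.99), where 14.7% and 25.4% of all genes were.

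The channel subunit genes CngA and CngB differed in opposite directions between larval Pdf and Tim without Pdf cells. CngA was 11.70, 10.64 and 12.00 in Tim without Pdf cells, 10.13, 9.43 and 7.65 in Tim cells and 5.03, 4.46 and 5.76 in Pdf cells, without overlap between any of these groups. It was at least 72.9-fold lower in Pdf than in Tim without Pdf cells (adjusted p = 8.05e-07). CngB was 9.11, 10.32 and 11.96 in Pdf cells, 7.59, 9.32 and 7.91 in Tim cells and 6.26, 7.75 and 5.58 in Tim without Pdf cells. It was 15.3-fold higher in Pdf than in Tim without Pdf cells (adjusted p = 0.000192), and the Tim arrays overlapped both groups. In that comparison 8 of the 29 genes were higher and 1 lower, where 15.1% and 7.56% of all genes were. In larval Tim against Tim without Pdf cells 2 were higher and 1 lower (12.4% and 3.87% of all genes). Among larval Pdf, Tim and Tim without Pdf cells, the group means of CngA and Ac76E were higher in the groups with ring gland markers, whose part was not tested. Ac76E also averaged 12.14 in adult large Pdf cells and 10.26 in adult Elav cells. There the mean over the ring gland markers was at most 2.39 and 3.52 on any array.

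Another cyclase gene, CG43373, which RefSeq lists under the synonym dADCY5, was detected in larval Pdf cells (7.11, 8.57 and 10.09) and adult small Pdf cells (9.24 and 9.42). In large Pdf cells it was 6.20, 2.48 and 2.60, with 1 of 3 arrays above the limit, and it was under 5 on all arrays of the other groups. Small exceeded large Pdf cells at least 15.2-fold (adjusted p = 0.00107). The gene of the PDF receptor, Pdfr, followed the same groups, with 5.61, 7.71 and 8.50 in larval Pdf cells, 6.07 and 7.11 in small Pdf cells and values below 2.60 on the arrays of the other groups. Both genes were at background in larval Tim cells, where Pdf itself averaged 14.34.

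In adult large Pdf against Elav cells 1 of the 29 genes was higher and 5 lower, where 3.4% and 5.66% of all genes were. In small Pdf cells 4 were higher and 5 lower, where 3.57% and 5.18% of all genes were. In large against small Pdf cells 1 was higher and 2 lower, where 1.71% and 1.92% of all genes were. The receptor gene Dh31-R, for the peptide DH31, was 16.99-fold higher in large (adjusted p = 0.00111) and 20.2-fold higher in small Pdf cells (adjusted p = 0.00189). The calmodulin-dependent phosphodiesterase gene Pde1c was 25.4-fold lower in large (adjusted p = 0.00041) and 65.0-fold lower in small Pdf cells (adjusted p = 8.5e-05). The dopamine receptor gene Dop1R1 was at least 17.9-fold and at least 26.0-fold lower. Pde11 was at least 52.0-fold lower in small Pdf than in Elav cells (adjusted p = 0.000128) and at least 8.04-fold higher in large than in small Pdf cells (adjusted p = 0.0282).

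In eyes 13 of the 29 genes were lower and 4 higher than in adult Elav cells, where 25.5% and 14.4% of all genes were, the lower ones including 5 of 6 receptors, among them Octbeta1R (at least 34.5-fold) and Dop1R1 (at least 27.2-fold). In adult against larval Elav cells 20 were higher and 3 lower, where 20.3% and 23.4% of all genes were, the higher ones including all 5 phosphodiesterases, with Pde1c at least 116-fold higher. Large Pdf cells had 6 genes higher and 5 lower than larval Pdf cells, where 11.3% and 15.2% of all genes were. Small Pdf cells had 4 higher and 3 lower, where 4.82% and 7.5% of all genes were. Dh31-R was 50.2-fold higher in large and 59.6-fold higher in small Pdf cells than in larval Pdf cells. Galphai, of the inhibitory G protein, was at least 22.8-fold and at least 14.7-fold lower.

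**Figure D5:**
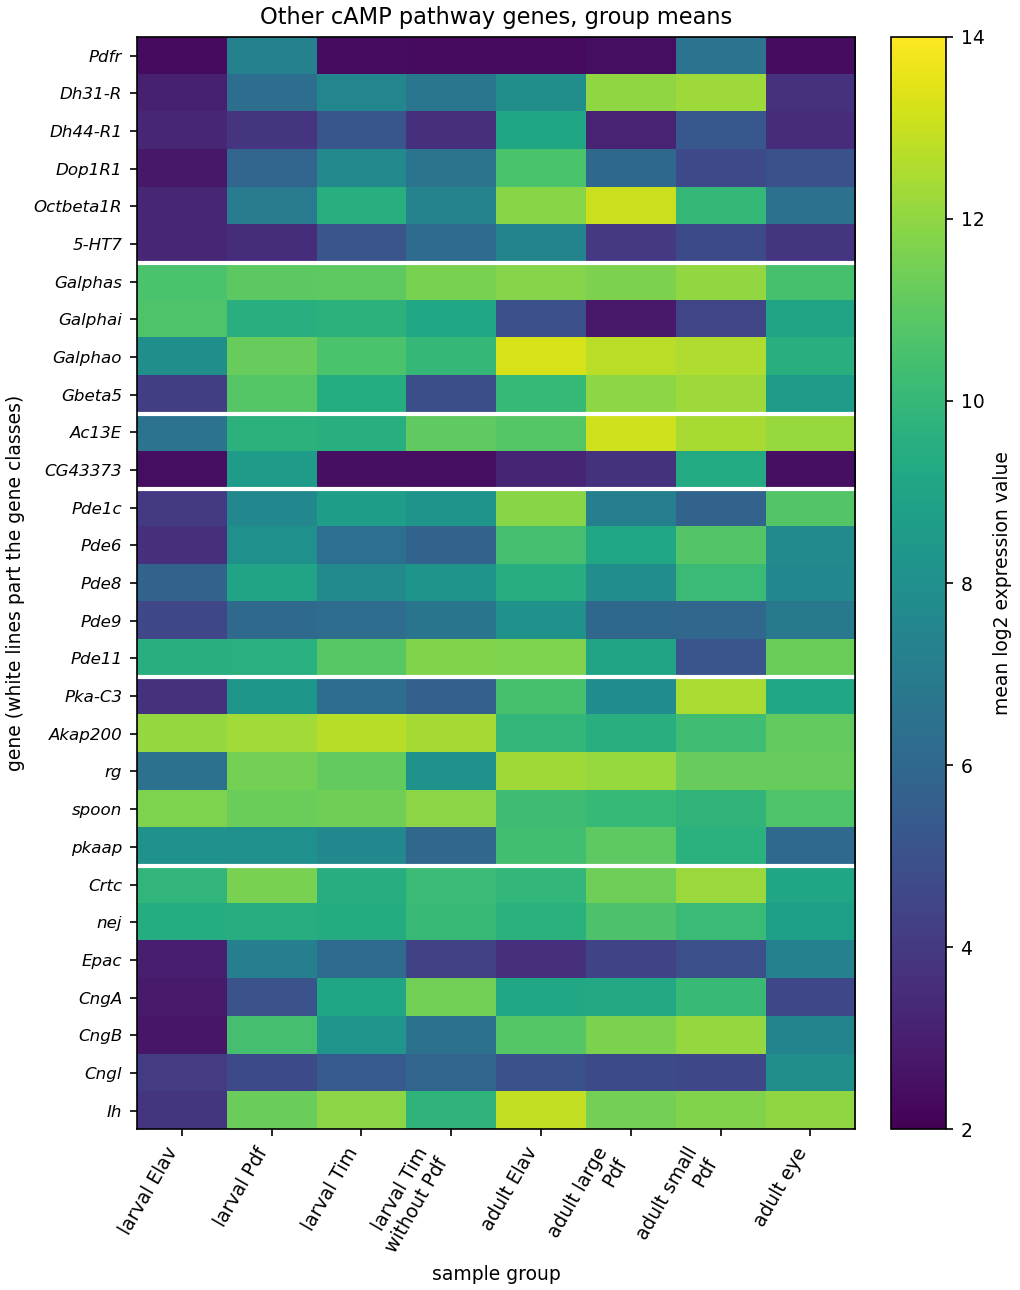
Mean log2 expression value (colour scale from 2 to 14) of the 29 other cAMP pathway genes tested (vertical axis, white lines between gene classes) in the 8 sample groups (horizontal axis). Pdfr and CG43373 are bright in larval Pdf and adult small Pdf cells, and the larval Elav column is dark for most receptors and phosphodiesterases.

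Across the 8 group means, which share the driver lines and the stage as sources of difference, Ac78C tracked dnc (r = 0.926) and Pka-R1 (r = 0.900). The correlation was 0.773 between dnc and Pka-R1, 0.701 between Ac76E and Pka-R1, 0.631 between Ac78C and Ac76E and 0.497 between Ac76E and dnc. rut correlated with the others at 0.074 to 0.410. Among all genes tested, those whose group means were most like Ac78C were CG13204 (r = 0.993), vib (r = 0.985) and Sln (r = 0.980). The closest to Ac76E were CG3719, RapGAP1 and CG10527 (r = 0.966, 0.951 and 0.946), and to rut CG11248, MYPT-75D and CG31674 (r = 0.961, 0.953 and 0.951). The mean of rut was under the limit in eyes and in larval Tim, Tim without Pdf and Pdf cells, which limits its correlations. Picking the highest of all genes tested over 8 means yields high r by itself. The closest to dnc were unc79, CG5282 and cmpy (r = 0.980, 0.974 and 0.970), of which unc79 encodes a subunit of the sodium leak channel complex. The closest to Pka-R1 were beat-Ia, CG13248 and CG10068 (r = 0.986, 0.986 and 0.977).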

How the data were processed

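The authors deposited log2 expression values of 18952 probe sets on 23 arrays, made with GCRMA per the submitters' processing notes. The sources used here do not name its version or settings. Per the labels' protocols, RNA inputs between 0.1 and 0.4 ng were amplified in 2 rounds with T7 polymerase, which favours 3′ ends, so levels were compared between groups and not between genes. The lowest value was 1.68 and the highest 16.2, and array medians lay between 2.90 and 3.31. Depth has no meaning for arrays, and their number limits the precision. The platform annotation gave 13647 probe sets 1 gene, 402 several and 4903 none, and 13544 symbols were matched to RefSeq's gene table. No genome build is named by the files and no sequence tables were used here, so no coordinates or sequences are printed. All 23 columns were used. The most similar pair of arrays differed by a median of 0.356 log2 units.

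Of 11982 genes, the 7670 (64.0%) above 5 on at least 2 arrays entered a limma 3.58.1 fit under R 4.3.3, tested beforehand on simulated data. For larval Pdf against Elav cells it called 16% of simulated log2 changes of 1.5 and 57% of those of 3. For large against small Pdf cells it called 1% and 50%, so true differences of these sizes can often be missed. The linear model estimated 8 group means from 23 arrays, which leaves 15 residual degrees of freedom, with eBayes, 12 comparisons of groups and 2 differences of differences. Tests were two-sided, with Benjamini-Hochberg adjustment over all 7670 genes. No scan date or slide was given, so none could be tested as a batch. The members, gene lists, rule for named genes and tests were chosen with earlier results of these data known. Named pathway genes were up to 4 called genes per comparison whose groups did not overlap, by difference with values under 5 raised to 5. Similar genes were the 3 with the highest Pearson correlation over 8 group means. Other values given for these genes, and nSyb, Rim, Snap25, jhamt, spok, dib, Eh and Hml, were chosen after their values were seen. Alternatives were no filter, a floor at 5, the mean of a gene's probe sets, another quantile normalization, array quality weights, only the compared groups in the fit, a replicate block, leaving out each replicate and larval Pdf replicate 3 alone.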

Additional observations from a re-analysis of the deposited data

Results flagged for a closer look

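These 4 results differed between larva and adult by a test of the difference itself. The excess of dnc in Pdf over Elav cells was lower in the adult, with a difference of differences of −5.24 for large cells (adjusted p = 0.000355 by limma) and −4.69 for small cells (adjusted p = 0.00185). For dnc the value in the 3 larval Pdf arrays was above all larval Elav arrays, and that in the 5 adult Pdf arrays was below all adult Elav arrays. The excess of Ac78C gave −5.17 for large cells (adjusted p = 0.0143), and that of Ac76E gave −6.13 for small cells (adjusted p = 0.0104). Both genes lay under the limit on all larval Elav arrays. With values under 5 raised to 5 these values were −3.39 for Ac78C and −3.90 for Ac76E, the latter not called (adjusted p = 0.107). In the same differences of differences 5 of 6 neuronal markers were called lower, with medians of −6.20 for large and −7.04 for small cells, and so were 15 and 12 of the 29 other pathway genes tested. Each value is the adult minus larval difference in Pdf cells less that in Elav cells. In Pdf cells that difference was −0.08 (dnc, large), +0.47 (dnc, small), +1.85 (Ac78C, large) and +1.36 (Ac76E, small), none called. In Elav cells it was +5.16 for dnc, +7.03 for Ac78C and +7.49 for Ac76E, all called. The larval Elav cells, low in neuronal and high in neuroblast genes, enter all of these values, and the part of that make-up was not tested.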

How the results depend on the processing

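Ac78C and dnc in larval Pdf and Tim against larval Elav cells, the 4 genes higher in adult than larval Elav cells, the 3 genes lower in eyes and both dnc differences of differences kept their direction and call under every alternative run. The count of genes called over all genes moved from 1996 to 1173 (larval Pdf against Elav), 1740 to 868 (larval Pdf against Tim without Pdf), 1245 to 569 (larval Tim against Tim without Pdf), 695 to 426 (large Pdf against Elav), 671 to 352 (small Pdf against Elav), 278 to 19 (large against small Pdf), 2036 to 1050 (large against larval Pdf) and 945 to 118 (small against larval Pdf) with only the compared groups in the fit. Array weights gave 3402 genes in place of 1795 (larval Tim against Elav) and 2403 in place of 1245 (larval Tim against Tim without Pdf). Larval Pdf replicate 3 alone, chosen after seeing the data, gave 1107 (against Tim without Pdf), 821 (large) and 310 (small against larval Pdf).

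Of the 5 members, with only the compared groups in the fit 1 was called in Tim without Pdf against larval Elav cells, 0 in larval Pdf or Tim against Tim without Pdf cells and 2 in large Pdf against Elav cells. The mean of probe sets gave 1 in Tim without Pdf against larval Elav, 1 in large Pdf against Elav and 1 in large against small Pdf cells. No filter gave 1 in larval Pdf and 1 in larval Tim against Tim without Pdf and 0 in small against larval Pdf cells, and quantile normalization 1 in large Pdf against Elav cells. The floor at 5 gave 2 in small against larval Pdf cells and 1 in the small-cell difference of differences, and array weights gave 0 in small against larval Pdf cells. Larval Pdf replicate 3 alone gave 1 against Tim without Pdf, 1 in large and 0 in small against larval Pdf cells and 1 in the large-cell difference of differences.

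Leaving out single replicates gave 1294 to 1964 genes (larval Pdf against Elav), 1145 to 1537 (larval Pdf against Tim without Pdf), 662 to 1246 (larval Tim against Tim without Pdf), 408 to 573 (small Pdf against Elav) and 409 to 1040 (small against larval Pdf). Members called ranged from 1 to 4 (Tim without Pdf against larval Elav), 1 to 3 (larval Pdf against Tim without Pdf), 1 to 2 (larval Tim against Tim without Pdf), 0 to 1 (small against larval Pdf) and 1 to 3 (small-cell difference of differences). Where small or larval Pdf cells keep 1 array, that array is assumed to vary like the other groups.

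Signs turned only in differences not called. Values under 5 raised to 5 gave +0.17 (Tim without Pdf against larval Elav), +0.20 (large against small Pdf), −0.16 and −0.36 (differences of differences with large and small cells) for rut. Quantile normalization gave +0.073 for rut in large against small Pdf cells. The mean of probe sets gave −0.45 for Pka-R1 in small Pdf against Elav cells and +0.43 in the large-cell difference of differences. dnc gave +0.14 with array weights in large against larval Pdf cells and −0.25 in small cells against larval Pdf replicate 3 alone. Without single replicates, dnc ranged from −0.19 to 1.34 (Tim without Pdf against larval Elav) and −0.38 to 0.28 (large against larval Pdf), Ac76E from −2.75 to 0.018 (larval Tim against Tim without Pdf), Ac78C from −0.73 to 0.11 (large Pdf against Elav), Pka-R1 from −0.30 to 0.67 (small Pdf against Elav) and rut from −0.46 to 0.62 (large against small Pdf). The cause was not tested for any of these, except that fewer arrays enter the fits with only the compared groups.

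Replicate numbers are shared between groups, but same-numbered arrays did not deviate together (median r of −0.015 over 77 pairs, range −0.317 to 0.278). The replicate block left the members called in all 14 comparisons at the same number and gave 1912 genes in larval Pdf against Elav cells.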
